A study of Mus musculus with 4 samples.

Results

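The GATA factor family was described across the germ layers and extra-embryonic tissues of gastrulating mouse embryos. Its members were chosen by name, as the 6 genes Gata1 to Gata6, and not by a cut-off on a measured value. All 6 were among the 16639 genes listed at the first stage and the 18640 listed at the last. At the middle stage 5 of them were among the 16341 listed genes, and Gata5 was not listed.

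Single cells of whole embryos were captured with the 10x Genomics 3′ assay, in which each captured transcript carries a unique molecular identifier (UMI), so that UMIs count molecules. Every embryo carried the genotype TnEGP-CreERT2/+; R26Rtdtomato/R26Rtdtomato, in which a tamoxifen-dependent Cre is driven by the T gene, which is active in the primitive streak, and can switch on a tdTomato reporter. Every pregnancy also received tamoxifen by oral gavage, so no embryo without the Cre allele or without tamoxifen was available for comparison. Cells of several embryos were pooled into 1 library per stage.

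The mid to late streak group (MS-LS) was collected at E6+21h after tamoxifen at E6+5h, and held 3635 cells with 17966956 UMIs and a median of 4251 UMIs per cell. The group at the stages named OB and EB (OB-EB) was collected at E7+3h after tamoxifen at E6+21h, and held 3994 cells with 12181436 UMIs and a median of 2620.5. The early head fold group (EHF) was collected at E7+14h after tamoxifen at E7+7h, and held 3494 cells with 20376539 UMIs and a median of 5584. The 2 tables of EHF counts held the same value in all 65128160 places, and they were counted as 1 library. Stage, library, depth and tamoxifen timing cannot be told apart in this design. There were no replicates, so no test was run, and every interval given is a 95% interval that covers counting error only.

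GATA factors are zinc finger transcription factors named after the short DNA motif that they bind. Gata1, Gata2 and Gata3 are best known for their roles in blood formation and in trophoblast, whereas Gata4, Gata5 and Gata6 act in endoderm and in cardiac and other mesoderm. Members often replace or join one another on shared target genes as cells differentiate, and the partner proteins present in a cell, such as the FOG cofactors, shape what they do.

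Cells were clustered without the 6 genes, and clusters were named from fixed markers that did not include them, so the names do not rest on the levels described here. At EHF 22 of 30 clusters were named, into 14 classes with 2500 of 3494 cells. At MS-LS 10 of 17 clusters were named, into 6 classes with 2359 cells, and at OB-EB 8 of 15, into 6 classes with 1953 cells. Each name means that the cells were like that type by their markers. A level is the number of UMIs of a gene per 1000000 UMIs of the class (CPM). Levels of the 6 genes were compared between classes and never with one another, since capture at the 3′ end differs from gene to gene.

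The family was sparsely captured. Gata6 gave 838 UMIs at MS-LS, 376 at OB-EB and 490 at EHF, and Gata4 412, 230 and 282. Gata1 went from 33 and 40 UMIs at MS-LS and OB-EB to 412 at EHF, and Gata2 from 78 and 71 to 423. Gata3 gave 66, 56 and 124 UMIs. Gata5 gave 5 UMIs at MS-LS and 56 at EHF. The later stage thus held most of the Gata1, Gata2 and Gata5 UMIs. At EHF 373 of the 412 Gata1 UMIs, 391 of the 423 Gata2 UMIs and 432 of the 490 Gata6 UMIs fell in named classes. At the earlier stages fewer did, with 426 of 838 Gata6 UMIs and 286 of 412 Gata4 UMIs at MS-LS, and 183 of 376 Gata6, 100 of 230 Gata4, 22 of 71 Gata2 and 17 of 40 Gata1 UMIs at OB-EB. The class orders of those stages leave out the rest.

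A rostral neuroectoderm class (47 cells, median 7561 UMIs) served as the background at EHF. It held 0 UMIs of all 6 genes, which allows a level of up to 7.76 CPM (3 UMIs) and a share of cells with a UMI of up to 6.38%. The caudal epiblast class (378 cells) gave a tighter limit for several members. There Gata2 was at 0.414 CPM, Gata4 at 0.828 CPM, Gata1 at 2.07 CPM and Gata6 at 3.73 CPM.

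Promoter windows of the members were read first, since GATA factors bind GATA motifs in the promoters of their own family. RefSeq windows of 300 bases around the annotated starts on GRCm38.p6 matched 4 of the 6 members, with 2 starts for Gata2. Both strands were searched for AGATAA with its variant AGATAG, and for TGATAA with its variant TGATAG, which all share their middle letters. Of 32851 windows of the same kind 9778 (29.8%) held at least 1 match. Sequences run 5′ to 3′ on the strand of the gene, and capitals mark a match.
Gata1 (chrX:7967861-7968160, minus strand): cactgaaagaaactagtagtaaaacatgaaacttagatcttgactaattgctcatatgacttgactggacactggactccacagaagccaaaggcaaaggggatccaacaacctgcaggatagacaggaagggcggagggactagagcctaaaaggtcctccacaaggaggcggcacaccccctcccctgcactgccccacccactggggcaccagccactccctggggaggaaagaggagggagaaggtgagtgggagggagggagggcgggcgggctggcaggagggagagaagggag
Gata2 (chr6:88193641-88193940, plus strand): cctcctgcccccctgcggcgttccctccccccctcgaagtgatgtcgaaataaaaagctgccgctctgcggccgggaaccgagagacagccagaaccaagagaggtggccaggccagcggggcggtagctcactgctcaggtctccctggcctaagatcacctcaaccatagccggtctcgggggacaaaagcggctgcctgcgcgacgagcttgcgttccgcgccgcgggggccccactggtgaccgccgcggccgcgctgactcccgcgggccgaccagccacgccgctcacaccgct
Gata2 (chr6:88198414-88198713, plus strand): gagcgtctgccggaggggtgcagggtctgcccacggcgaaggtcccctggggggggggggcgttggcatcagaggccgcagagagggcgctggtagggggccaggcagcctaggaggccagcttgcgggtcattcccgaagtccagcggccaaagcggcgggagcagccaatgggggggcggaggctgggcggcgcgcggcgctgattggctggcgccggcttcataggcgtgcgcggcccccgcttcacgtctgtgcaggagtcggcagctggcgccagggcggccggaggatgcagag
Gata3 (chr2:9878551-9878850, minus strand): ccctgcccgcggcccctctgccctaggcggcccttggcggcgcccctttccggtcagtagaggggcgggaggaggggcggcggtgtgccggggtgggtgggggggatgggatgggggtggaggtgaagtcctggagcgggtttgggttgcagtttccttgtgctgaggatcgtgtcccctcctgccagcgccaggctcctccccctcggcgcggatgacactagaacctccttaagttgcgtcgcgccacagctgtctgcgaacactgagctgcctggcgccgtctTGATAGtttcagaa
Gata5 (chr2:180334630-180334929, minus strand): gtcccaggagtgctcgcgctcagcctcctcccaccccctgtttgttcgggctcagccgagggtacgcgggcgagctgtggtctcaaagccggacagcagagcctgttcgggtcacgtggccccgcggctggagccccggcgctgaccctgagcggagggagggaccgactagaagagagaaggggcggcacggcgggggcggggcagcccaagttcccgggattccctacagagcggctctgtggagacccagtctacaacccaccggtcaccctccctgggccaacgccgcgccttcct
The Gata3 window held 1 match, TGATAG, near its 3′ end, and the windows of Gata1, Gata2 and Gata5 held 0. A match is a run of letters and not a bound site, and its absence says only that these letters are not in this window.

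Gata1 was highest in the blood lineage at EHF. This X-linked gene (chrX:7959260-7978071, GRCm38) encodes the master regulator of erythroid genes. Its level was 227 CPM (189 to 271; 126 UMIs) in the erythroid class of 104 cells and 208.5 CPM (176 to 245; 144 UMIs) in the 126 blood progenitors. These were the highest 2 classes and did not differ beyond counting error. Extra-embryonic ectoderm came next at 19.5 CPM (15.1 to 24.6; 69 UMIs), followed by endothelium at 18.0 CPM (8.65 to 33.2; 10 UMIs). The step from blood progenitors down to extra-embryonic ectoderm was a log2 ratio of 3.42 (3.00 to 3.86), whereas extra-embryonic ectoderm and endothelium did not differ beyond counting error. The remaining 10 classes were at or below 5.48 CPM.

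Gata2, a regulator of blood stem and progenitor cells and of endothelium (chr6:88193891-88207032), had another order. It was highest in blood progenitors at 107 CPM (84.1 to 135; 74 UMIs) and endothelium at 92.0 CPM (68.5 to 121; 51 UMIs), which did not differ beyond counting error. Extra-embryonic ectoderm was at 58.1 CPM (50.4 to 66.6; 206 UMIs) and the erythroid class at 27.1 CPM (15.1 to 44.6; 15 UMIs). Both of these steps exceeded counting error, with log2 ratios of 0.66 (0.19 to 1.11) for endothelium over extra-embryonic ectoderm and 1.10 (0.35 to 1.97) for extra-embryonic ectoderm over erythroid. The last step depended on how the class was drawn. At higher clustering resolution extra-embryonic ectoderm held 331 cells with Gata2 at 21.4 CPM (47 UMIs), below the erythroid level given here. In visceral endoderm the level was 8.05 CPM (18 UMIs). Neighbours further down the order did not differ beyond counting error.

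Gata3 (chr2:9857078-9890034), which acts in trophoblast and in lymphoid and epithelial tissues, had no single leading class. It was at 25.3 CPM (12.6 to 45.2; 11 UMIs) in definitive endoderm and 19.5 CPM (15.1 to 24.6; 69 UMIs) in extra-embryonic ectoderm. Endothelium followed at 10.8 CPM (6 UMIs) and nascent mesoderm at 6.33 CPM (6 UMIs). No neighbours in this order differed beyond counting error. In visceral endoderm 0 UMIs were counted in 333 cells.

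**Figure D1:**
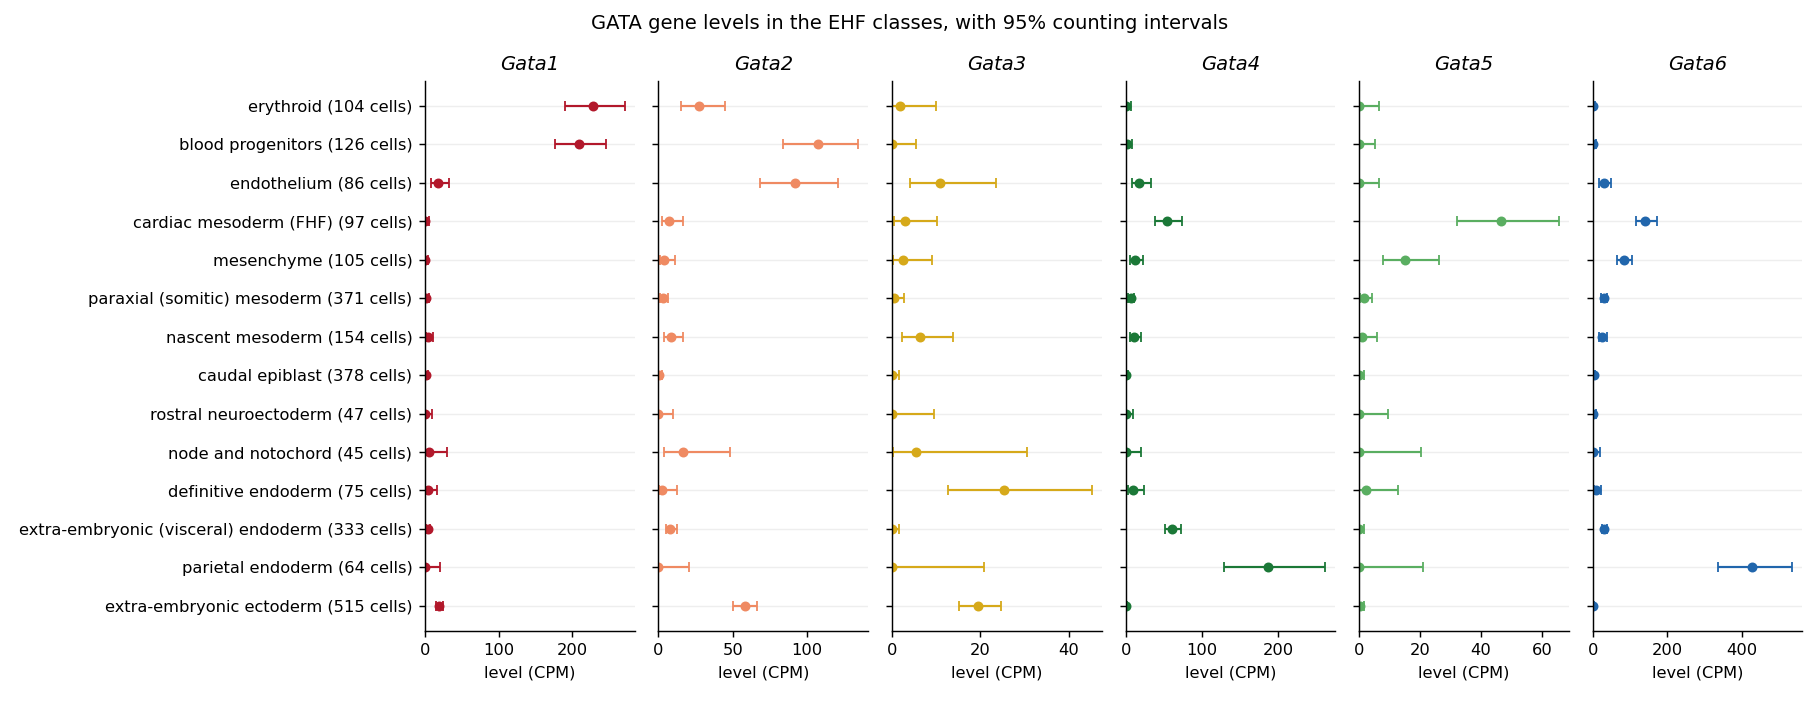
Levels of the 6 genes (CPM, horizontal axes, 1 scale per gene) in the 14 EHF classes, as points with 95% counting intervals. Gata1 stands out in erythroid cells and blood progenitors (227 and 208.5 CPM), Gata5 in cardiac mesoderm (46.7 CPM) and Gata4 and Gata6 in parietal endoderm (186 and 429 CPM).

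Gata4, a regulator of endoderm and heart (chr14:63198922-63271692), was highest in parietal endoderm at 186 CPM (128 to 261; 33 UMIs). Visceral endoderm at 61.2 CPM (51.4 to 72.4; 137 UMIs) and cardiac mesoderm at 53.8 CPM (38.1 to 73.9; 38 UMIs) shared the next place and did not differ beyond counting error. Endothelium (18.0 CPM, 10 UMIs), mesenchyme (12.6 CPM, 10 UMIs) and nascent mesoderm (11.6 CPM, 11 UMIs) lay lower. The steps that exceeded counting error were parietal over visceral endoderm (log2 ratio 1.60, 1.01 to 2.16) and cardiac mesoderm over endothelium (1.58, 0.54 to 2.75).

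Gata5 (chr2:180325133-180334699), a cardiac and endodermal member, was counted mainly in 2 classes. Cardiac mesoderm held 33 UMIs (46.7 CPM, 32.2 to 65.6) and mesenchyme 12 UMIs (15.1 CPM, 7.80 to 26.4), a log2 ratio of 1.63 (0.64 to 2.72). None of the other 12 classes held more than 3 UMIs. The antisense gene Gata5os overlaps Gata5 on the opposite strand (chr2:180332857-180340732), and the sources used here do not say how the counting treated strand, so transcripts of the 2 genes may not be separated.

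Gata6, which specifies primitive endoderm and later acts in heart and gut (chr18:11052064-11085635), was high in several lineages. It was at 429 CPM (338 to 537; 76 UMIs) in parietal endoderm, 142 CPM (115 to 172; 100 UMIs) in cardiac mesoderm and 83.1 CPM (64.2 to 106; 66 UMIs) in mesenchyme. Each of these 3 steps exceeded counting error, with log2 ratios of 1.60 (1.15 to 2.04), 0.77 (0.31 to 1.24) and, for mesenchyme over visceral endoderm, 1.41 (0.90 to 1.91). Below them lay visceral endoderm (31.3 CPM, 70 UMIs), endothelium (30.7 CPM, 17 UMIs), paraxial mesoderm (28.9 CPM, 60 UMIs) and nascent mesoderm (25.3 CPM, 24 UMIs). These 4 classes did not differ beyond counting error from one to the next. Definitive endoderm was at 9.18 CPM (4 UMIs).

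Whether cells had a UMI at all depended on depth, so each cell was also thinned at random to 1500 UMIs and shallower cells were left out. In the thinned cells Gata1 was seen in 30 of 104 erythroid cells (28.8%, exact Clopper-Pearson interval 20.4 to 38.6) and 34 of 125 blood progenitors (27.2%, 19.6 to 35.9). Before thinning the shares were 66.3% and 66.7%, at median depths of 5164 and 5223 UMIs. The background class gave 0 of 47 cells before and after thinning, at a median depth of 7561 UMIs. Both blood shares lay above the limit of 6.38% that this allows.

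In thinned extra-embryonic ectoderm cells the share was 3.02% for Gata1, 9.05% for Gata2 and 3.22% for Gata3, and 11.1%, 25.4% and 11.8% before thinning, at a median of 6913 UMIs. The thinned shares of Gata1 and Gata3 lay below the limit that the small background class allows. Gata2 was seen in 9.60% of thinned blood progenitors and 12.8% of thinned endothelial cells, and in 33.3% and 40.7% before thinning. For Gata3 in definitive endoderm 1 of 73 thinned cells had a UMI, and 14.7% before thinning.

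Gata4 and Gata6 each had their highest share in parietal endoderm, where 47.6% of thinned cells had a Gata6 UMI and 23.8% a Gata4 UMI. Before thinning these were 67.2% and 46.9%, although the class was shallow (64 cells, median 2742.5 UMIs). In cardiac mesoderm (97 cells, median 6466 UMIs) 13.4%, 8.25% and 7.22% of thinned cells had a Gata6, Gata4 and Gata5 UMI, and 55.7%, 32.0% and 25.8% before thinning. In visceral endoderm (median 6432 UMIs) Gata4 was seen in 8.86% of thinned cells and Gata6 in 4.11%, and in 31.2% and 15.9% before thinning. In mesenchyme (median 6062 UMIs) Gata6 was seen in 7.62% of thinned cells and 42.9% before.

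**Figure D2:**
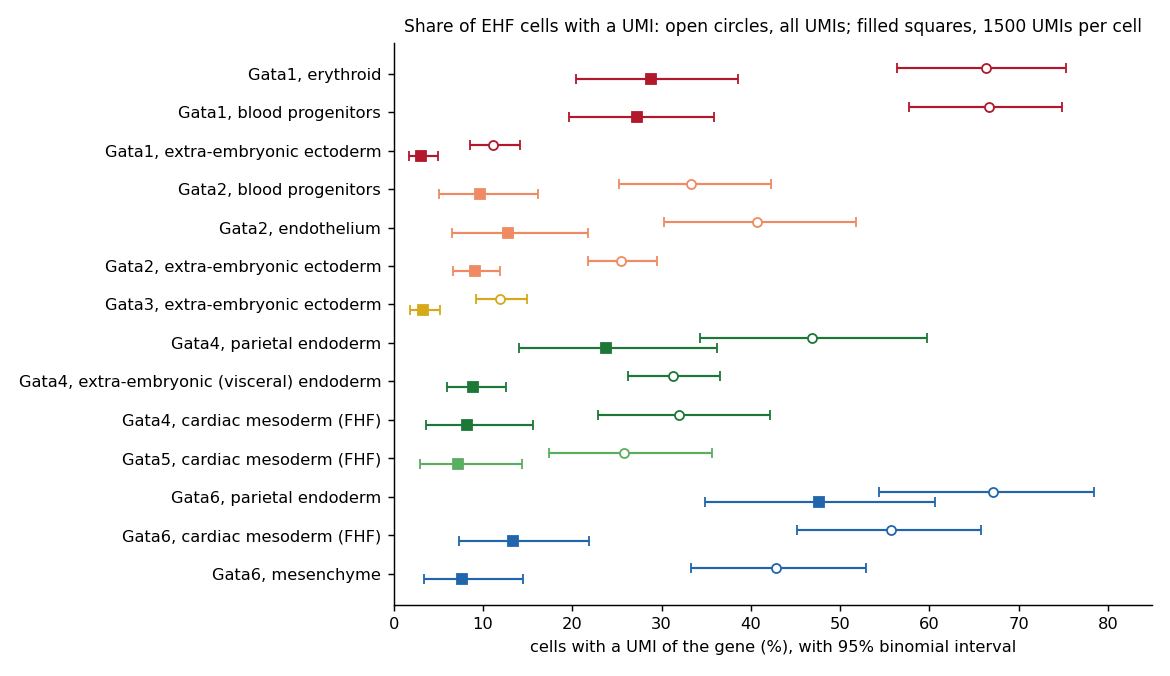
Share of EHF cells with at least 1 UMI of a gene (percent, horizontal axis) for 14 pairs of gene and class, with 95% binomial intervals. Open circles use all UMIs and filled squares 1500 UMIs per cell, and every share fell with thinning, for example from 66.3% to 28.8% for Gata1 in erythroid cells.

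The first comparison followed the 2 haematopoietic members along the blood lineage, from endothelium through blood progenitors to erythroid cells. Gata1 was far lower in endothelium than in blood progenitors and level from there to erythroid cells. Gata2 was level from endothelium to blood progenitors and lower in the named erythroid cells. So the 2 genes changed at different steps of this series of classes. The series leaves out unnamed cluster 24 (74 cells), whose best type was erythroid but which had more leading genes of blood progenitors. There Gata2 was at 78.9 CPM (42 to 135).

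For erythroid cells over blood progenitors the log2 ratio was 0.12 (-0.23 to 0.48) for Gata1 and -1.99 (-2.89 to -1.17) for Gata2. For blood progenitors over endothelium it was 3.53 (2.61 to 4.62) for Gata1 and 0.22 (-0.31 to 0.76) for Gata2. The mesodermal members were also lower in blood progenitors. These held 1 UMI of Gata4 and 1 of Gata6 against 10 and 17 in endothelium, log2 ratios of -3.64 (-9.08 to -0.83) and -4.41 (-9.79 to -1.73). Gata3 had 6 UMIs in endothelium and 0 in blood progenitors, and the level that 3 UMIs would give there lay within the endothelial interval, so no difference can be read. Cardiac markers were also present in endothelium, where 5 of 8 had a UMI, with a summed level of 229 CPM, most of it Myl7 at 191 CPM, and Tbx5, Tnnc1 and Mab21l2 at 0. The same list summed to 1027 CPM in cardiac mesoderm, 312 CPM in mesenchyme, 49.2 CPM in rostral neuroectoderm and 37.6 CPM in blood progenitors. The part of such RNA in the Gata4 and Gata6 values was not tested.

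Some cells held UMIs of both genes. Before thinning 30 of 126 blood progenitors (23.8%, 16.7 to 32.2) and 9 of 104 erythroid cells (8.65%, 4.03 to 15.8) had UMIs of Gata1 and Gata2, and in thinned cells 2 of 125 (1.60%) and 0 of 104, which allows up to 2.88%. Of the 42 blood progenitors with a Gata2 UMI 71.4% also had a Gata1 UMI, and of the 13 such erythroid cells 69.2%. These shares lay near those of Gata1 over all cells of the classes, 66.7% and 66.3%.

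The genes around the blood members were read from a fixed list of partners and a fixed list of GATA1 targets, counting a gene as higher or lower past 2-fold. Among all 3146 genes with at least 50 UMIs over both classes 0.922% were higher and 0.826% lower in erythroid cells than in blood progenitors, with a median log2 ratio of 0.01. Of the 12 targets 10 could be counted and 6 were higher in erythroid cells, 0 lower, with a median of 1.21. The largest ratio was that of the embryonic globin Hba-x (6.29), and the smallest ratio was that of the repressor Gfi1b (0.00). Slc4a1 was not listed and Nfe2 had too few UMIs. The class had been named from 5 of the 10 targets, and of the other 5 only the erythroid factor Klf1 was higher (2.10), with a median of 0.46. Klf1 was itself a leading gene of the erythroid cluster, so its direction was fixed by the clustering.

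Of the 12 blood partners 9 could be counted, 1 higher and 1 lower, with a median of 0.29. Klf1 was the higher one and Fli1, an endothelial and megakaryocyte factor, the lower one (-1.11). Without the naming markers Tal1, Lmo2 and Runx1 the counts were 1 and 1 of 6, with a median of 0.31. For blood progenitors over endothelium, where 2.37% of 3204 genes were higher and 4.43% lower, 6 partners could be counted. Of these the haematopoietic factor Runx1, a naming marker, was higher (2.02) and Fli1 lower (-1.44), with a median of -0.26. Without the same markers 0 of 3 were higher and 1 lower, with a median of -0.18. The lower gene, Fli1, was a leading gene of the endothelial cluster, so its direction was fixed by the clustering. Of 3 countable targets 1 was higher, the embryonic globin Hbb-bh1 (5.18), with a median of 0.89. Hbb-bh1 was a leading gene of the blood progenitor cluster, so its direction was fixed by the clustering. The FOG cofactor gene Zfpm1 was at 106 CPM in erythroid cells, 86.9 CPM in blood progenitors, 46.9 CPM in endothelium and 2.59 CPM in rostral neuroectoderm.

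**Figure D3:**
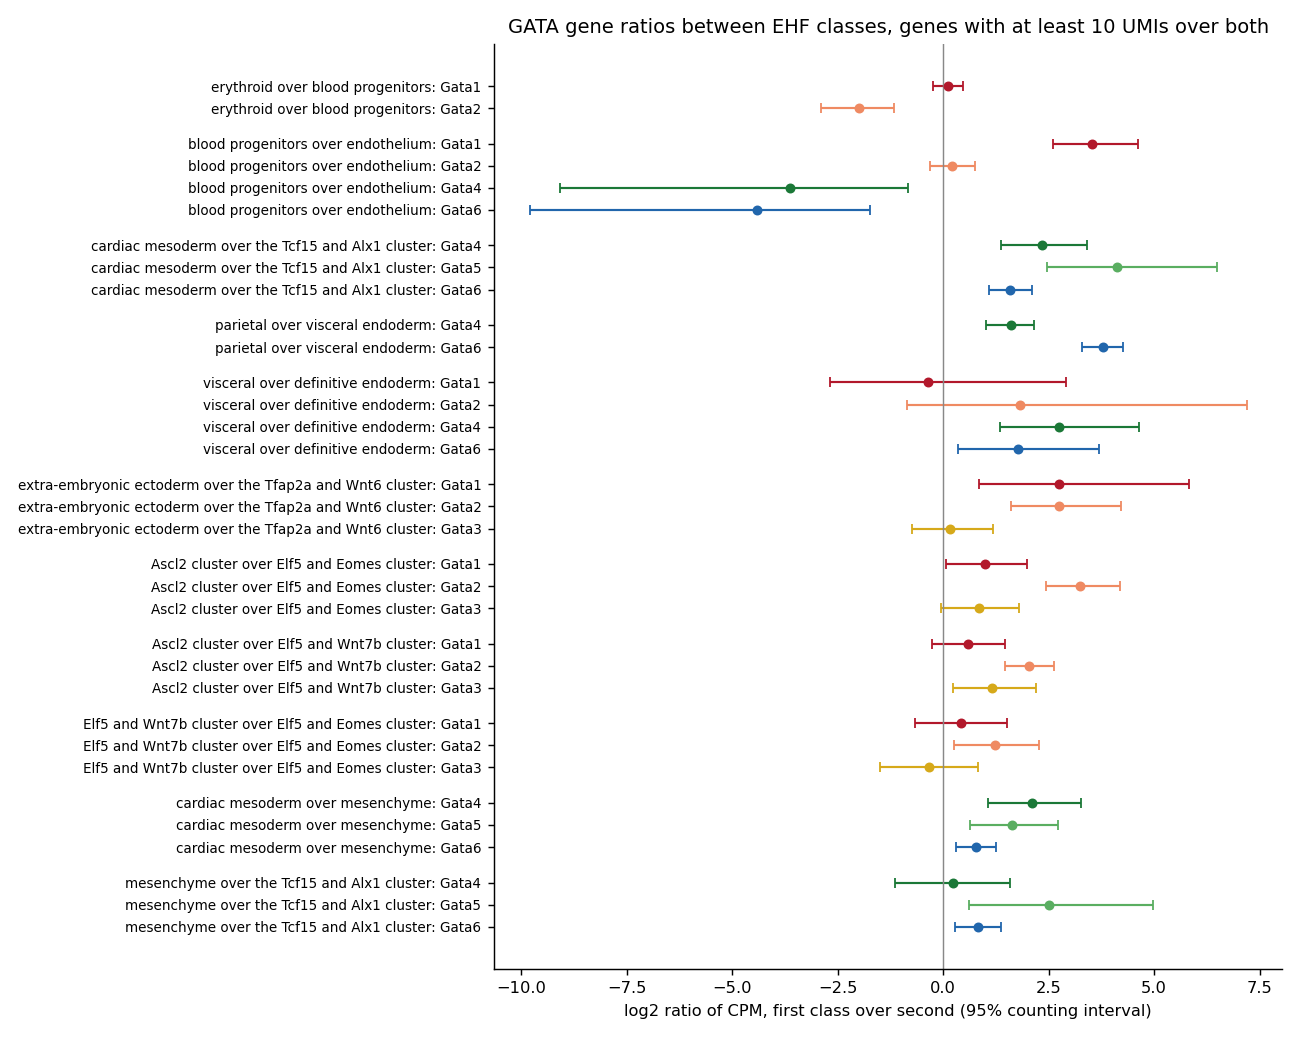
Log2 ratios of level (horizontal axis) between pairs of EHF classes or clusters, as points with 95% counting intervals. Genes are drawn where both classes held UMIs, with at least 10 over both. Gata1 departs from 0 for blood progenitors over endothelium (3.53) and Gata2 for erythroid cells over blood progenitors (-1.99).

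The next comparison set cardiac mesoderm against neighbouring mesoderm, where Gata4, Gata5 and Gata6 are known as partners in the heart programme. All 3 were higher in cardiac mesoderm. The comparison class was cluster 1 (192 cells, median 5663.5 UMIs), with Tcf15 and Alx1 among its leading genes. It was 1 of the 2 clusters named paraxial mesoderm, and no cluster was named pharyngeal mesoderm, its next best type. In that cluster Gata6 was at 47.1 CPM, Gata4 at 10.7 CPM and Gata5 at 2.67 CPM.

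The log2 ratios of cardiac mesoderm over this cluster were 2.33 (1.37 to 3.41) for Gata4, 4.13 (2.46 to 6.48) for Gata5 and 1.59 (1.09 to 2.10) for Gata6. The Gata6 ratio depended on how the cluster was drawn and reached 2.33 at a higher clustering resolution. Mesenchyme lay between the 2 for Gata6, with a log2 ratio of 0.82 (0.27 to 1.37) over cluster 1, and for Gata5, with 2.50 (0.61 to 4.97). For Gata4 mesenchyme and cluster 1 did not differ beyond counting error (0.24, -1.13 to 1.57), whereas cardiac mesoderm exceeded mesenchyme by 2.10 (1.06 to 3.27).

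Before thinning 25 of 97 cardiac cells (25.8%, 17.4 to 35.7) had UMIs of both Gata4 and Gata6, 16.5% of both Gata5 and Gata6 and 10.3% of both Gata4 and Gata5. Of the 31 cells with a Gata4 UMI 80.6% also had a Gata6 UMI, and of the 25 with a Gata5 UMI 64.0%, beside 55.7% of all cardiac cells. After thinning 1 cell had Gata4 with Gata6, 2 had Gata5 with Gata6 and 0 had Gata4 with Gata5, which allows up to 3.09%. The unthinned shares do not allow for differences in depth between cells, and the thinned cells with 2 members were very few. No link between the members in single cells can therefore be read from these shares.

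Among all 4226 genes counted for this pair 2.01% were higher and 1.30% lower in cardiac mesoderm, with a median of 0.01. Of the 9 cardiac partners 5 could be counted and all 5 were higher, with a median of 3.07. The largest ratio was that of the homeobox gene Nkx2-5 (4.70) and the next that of Mef2c (3.43), and the smallest was that of the chromatin remodelling subunit Smarcd3 (1.09). Of 10 sarcomere genes 4 could be counted and 4 were higher, with a median of 3.42, from Tnnt2 (5.09) and Myl4 (4.99) to Myl7 (1.25). Without the naming markers 3 of 3 partners and 2 of 2 sarcomere genes were higher, but Mef2c and Myl4 were leading genes of the cardiac cluster, so their direction was fixed by the clustering. The cardiac FOG gene Zfpm2 had 1 UMI in cardiac mesoderm and never more than 1 in a class.

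A further comparison covered the endoderm, in which Gata4 and Gata6 are early regulators. Both were higher in parietal than in visceral endoderm and higher in visceral than in definitive endoderm. Gata3 ran the other way, from 11 UMIs in definitive endoderm to 0 in visceral endoderm. Depth differed between these classes, with medians of 2742.5, 6432 and 5141 UMIs.

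For parietal over visceral endoderm the log2 ratio was 1.60 (1.01 to 2.16) for Gata4 and 3.78 (3.29 to 4.27) for Gata6. For visceral over definitive endoderm it was 2.74 (1.35 to 4.63) for Gata4, 1.77 (0.35 to 3.68) for Gata6 and, with 3 UMIs in place of the 0 in visceral endoderm and without the counting error of the other class, at most -4.23 for Gata3. Visceral endoderm was made of 3 clusters. Its main pair, cluster 0 led by Cubn and Dab2 and cluster 19 led by Afp and Rbp4, gave Gata4 at 65.2 and 57.8 CPM and Gata6 at 32.6 and 31.1 CPM, with overlapping intervals (52.0 to 80.8 and 43.2 to 75.8 for Gata4, 23.5 to 44.1 and 20.7 to 45.0 for Gata6).

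Beside Gata3 in definitive endoderm, 6 of 7 extra-embryonic ectoderm markers had a UMI, with a summed level of 195 CPM, the most abundant being Rhox5 at 94.1 CPM, and Esrrb at 0. The same list summed to 1831 CPM in extra-embryonic ectoderm, 38.8 CPM in rostral neuroectoderm and 918 CPM in visceral endoderm, where Gata3 had 0 UMIs. The part of such RNA in the Gata3 value was not tested.

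Gata4 and Gata6 were also counted in the same cells of parietal endoderm. Before thinning 23 of 64 cells (35.9%, 24.3 to 48.9) had UMIs of both, and after thinning 10 of 63 (15.9%, 7.88 to 27.3). In thinned cells this was 66.7% of those with Gata4, beside 47.6% of all cells with Gata6, and 33.3% of those with Gata6, beside 23.8% of all cells with Gata4. In visceral endoderm the shares with both were 6.31% before thinning and 0.316% after it.

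For parietal over visceral endoderm 9.22% of 5260 genes were higher and 19.9% lower, with a median of -0.08, so this pair differed widely beyond the GATA genes. Of 7 endoderm factors that act with GATA4 and GATA6 the 6 countable ones split into 3 higher and 3 lower, with a median of 0.39. The SOX factors Sox7 (2.62) and Sox17 (2.38) were among the higher, and the endocytic adaptor Dab2 (-2.74) and the nuclear receptor Hnf4a (at most -2.42, with 3 UMIs in place of 0) among the lower. Dab2 was a leading gene of a visceral endoderm cluster, so its direction was fixed by the clustering. Of 9 basement membrane genes 8 could be counted and 7 were higher, with a median of 5.59, led by Lama1 (7.87) and Nid1 (7.30), with Nid2 at -0.01. Without the 4 that named the class 3 of 4 were higher, with a median of 5.18, of which Nid1 and Lamc1 were leading genes of the parietal cluster, so their direction was fixed by the clustering. Parietal endoderm secretes the thick basement membrane known as Reichert's membrane.

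For visceral over definitive endoderm 19.2% of 5556 genes were higher and 7.67% lower, with a median of 0.10. The endoderm factors again split into 3 higher and 3 lower, with a median of 0.82, from Hnf4a (5.30) and Dab2 (5.14) to the pioneer factors Foxa2 (-1.68) and Foxa1 (-4.95). Without Sox17, which named definitive endoderm, 3 were higher and 2 lower, with a median of 2.76. Dab2 was a leading gene of a visceral endoderm cluster and Foxa1 of the definitive endoderm cluster, so their direction was fixed by the clustering. None of the 6 countable basement membrane genes passed 2-fold, and their median was 0.13.

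Another comparison asked how the members known from trophoblast were distributed in extra-embryonic ectoderm. Gata2 separated its clusters most, and Gata1 and Gata3 differed less. The class was made of 4 clusters, of which 3 had over 100 cells. Cluster 10 was led by Elf5 and Eomes, genes of trophoblast stem cells, cluster 6 by Elf5 and Wnt7b, and cluster 2 by genes that included Ascl2, a factor of the ectoplacental cone.

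Gata2 was at 12.4 CPM (13 UMIs) in cluster 10, 28.9 CPM (31 UMIs) in cluster 6 and 118 CPM (160 UMIs) in cluster 2. All steps exceeded counting error, with log2 ratios of 1.22 (0.25 to 2.28) for cluster 6 over 10, 2.03 (1.47 to 2.63) for 2 over 6 and 3.25 (2.44 to 4.19) for 2 over 10. Gata1 was at 13.3, 17.7 and 26.5 CPM in the same order, and the interval left 0 only for cluster 2 over 10 (0.99, 0.07 to 2.0). Gata3 was at 15.2, 12.1 and 27.3 CPM, and the interval left 0 only for cluster 2 over 6 (1.17, 0.22 to 2.20). The 3 clusters had similar depths, with medians of 7616.5, 6617 and 7113 UMIs.

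In thinned cells the share with a Gata2 UMI was 19.5% in cluster 2, 4.38% in cluster 6 and 0 of 134 cells in cluster 10, which allows up to 2.24%, and before thinning 49.2%, 15.5% and 9.70%. In cluster 2 both Gata2 and Gata3 were seen in 9.73% of cells before thinning and 1.08% after. At the higher resolution 46 cells, all within cluster 2, were named ectoplacental trophoblast from 4 of 6 markers (median 7617 UMIs). There Gata2 was at 176 CPM (136 to 224), a log2 ratio of 3.04 (2.48 to 3.61) over the 331 cells named extra-embryonic ectoderm at that resolution, where other cells of the class also lost the name, and Gata1 at 37.4 CPM, a ratio of 1.23 (0.22 to 2.16). For Gata3 the ratio was 0.83 (-0.36 to 1.88).

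**Figure D4:**
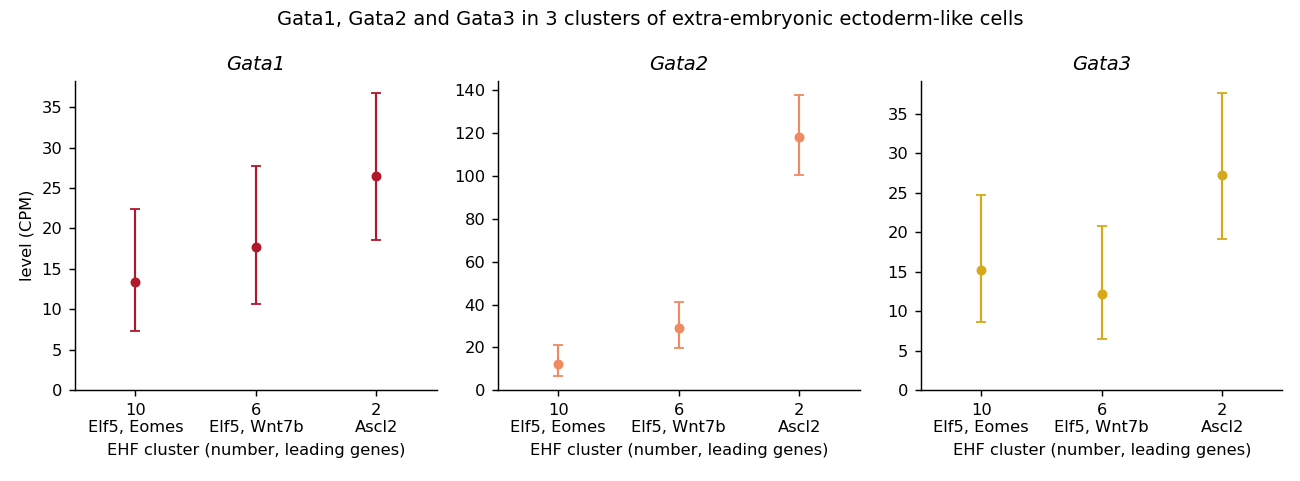
Levels of Gata1, Gata2 and Gata3 (CPM, vertical axes, 1 scale per gene) in the 3 larger EHF clusters of extra-embryonic ectoderm, as points with 95% counting intervals. Gata2 climbs from 12.4 CPM in cluster 10 to 118 CPM in cluster 2, whereas the intervals of Gata1 and Gata3 overlap more.

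Against embryonic ectoderm the class was set beside cluster 16, whose leading genes included Tfap2a and Wnt6 and which was not named, with 2 detected surface ectoderm markers (106 cells, median 5676 UMIs). Gata1 and Gata2 were higher in extra-embryonic ectoderm, with log2 ratios of 2.75 (0.85 to 5.83) and 2.75 (1.60 to 4.21), and the Gata2 ratio was 1.24 at higher clustering resolution. Gata3 did not differ beyond counting error (0.17, -0.73 to 1.19), at 17.3 CPM in cluster 16. Of 6709 genes 11.6% were higher and 6.32% lower, with a median of 0.10. Of 10 trophoblast partners 9 could be counted and 8 were higher, with a median of 2.21, from Ascl2 (6.61) and Elf5 (5.39) to Cdx2 (-0.02). Without Elf5 and Esrrb, which named the class, 6 of 7 were higher, with a median of 1.88. Of these Ascl2, Tfap2c and Eomes were leading genes of clusters in the class, so their direction was fixed by the clustering.

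Within extra-embryonic ectoderm the same list split. For cluster 2 over cluster 10, where 1.98% of 5101 genes were higher and 2.65% lower with a median of 0.03, 2 partners were higher and 4 lower, with a median of -0.56. Ascl2 (1.33) and the bHLH factor Hand1 (1.16) were the higher ones, and Eomes (-3.76) and the orphan receptor Esrrb (-3.23) had the lowest ratios. Without Elf5 and Esrrb 2 were higher and 2 lower of 7, with a median of -0.45. Some of these genes were leading genes of the clusters, so the split is a description only, and at lower resolution 0 partners were higher.

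Gata1 in extra-embryonic ectoderm was set beside blood genes, to show how much blood RNA was counted in that class. The globin Hbb-bh1 was at 19.2 CPM there and at 23.3 CPM in rostral neuroectoderm, where Gata1 had 0 UMIs. Per Gata1 UMI there were 0.986 Hbb-bh1 UMIs in extra-embryonic ectoderm, 6.89 in blood progenitors and 21.2 in erythroid cells. All 7 erythroid markers had a UMI there, with a summed level of 22.6 CPM, most of it Hbb-bh1, against 5679 CPM in erythroid cells. Of 8 blood progenitor markers 5 had a UMI, with a summed level of 11.6 CPM, the most abundant being Cited4 at 5.08 CPM, and Spi1, Itga2b and Ikzf1 were at 0.

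Of the 57 extra-embryonic ectoderm cells with a Gata1 UMI 7 had an Hbb-bh1 UMI, 1 each a Klf1, Runx1 and Tal1 UMI and 0 an Hba-x UMI, and 34 had an Elf5 UMI and 43 an Ascl2 UMI. At MS-LS, 18 cells of this class had a Gata1 UMI, of which 0 had Hbb-bh1, Hba-x, Klf1 or Tal1, 1 had Runx1, 13 had Elf5 and 8 had Ascl2. At OB-EB there were 8 such cells, of which 0 had Hbb-bh1, Klf1, Runx1, Tal1 or Ascl2 and 4 had Elf5. The shares of all cells of the class with these genes were not set beside the counts, so no link to Gata1 can be read from them. The part of blood RNA in the Gata1 value of this class was not tested.

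The last comparison followed classes found at more than 1 stage. Gata2 and Gata1 were higher in later extra-embryonic ectoderm, whereas Gata4 and Gata6 were lower in the later cells named visceral endoderm and nascent mesoderm. Gata6 was much lower in definitive endoderm at EHF than at OB-EB. Gata1 had 0, 2 and 8 UMIs in visceral endoderm at the 3 stages, where Hbb-bh1 had 1, 0 and 57, and the part of blood RNA in this was not tested. In nascent mesoderm it had 0 UMIs at MS-LS and 4 at EHF, from which no difference can be read.

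In extra-embryonic ectoderm Gata2 was at 5.22 CPM at MS-LS, 6.42 CPM at OB-EB and 58.1 CPM at EHF, a log2 ratio of 3.18 (2.03 to 4.64) for EHF over OB-EB and 3.48 (2.74 to 4.31) for EHF over MS-LS. At EHF its clusters were at 12.4 CPM (cluster 10), 28.9 CPM (cluster 6) and 118 CPM (cluster 2). With higher clustering resolution the ratios were 1.74 over OB-EB and 2.04 over MS-LS. The EHF class then held 331 cells with 47 Gata2 UMIs, against 515 cells with 206, and the 46 ectoplacental cells held 66. Gata1 was at 5.87, 9.64 and 19.5 CPM, and EHF exceeded MS-LS by 1.73 (0.96 to 2.56). The globin Hbb-bh1 moved with it, with 2 UMIs (0.653 CPM) in this class at MS-LS, 0 at OB-EB and 68 (19.2 CPM) at EHF, and its part in the Gata1 difference was not tested. For EHF over OB-EB its interval barely left 0 (1.01, 0.01 to 2.20). Gata3 was at 13.7, 18.2 and 19.5 CPM, with no step beyond counting error.

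In visceral endoderm Gata4 was at 83.0 CPM at MS-LS, 49.0 CPM at OB-EB and 61.2 CPM at EHF, and Gata6 at 60.1, 37.4 and 31.3 CPM. The log2 ratio of EHF over MS-LS was -0.44 (-0.76 to -0.12) for Gata4 and -0.94 (-1.37 to -0.52) for Gata6. These values leave out MS-LS cluster 5 (257 cells), whose best type was visceral endoderm with 8 of 9 markers detected but which was not named for want of margin. It held Gata4 at 54.4 CPM and Gata6 at 48.4 CPM, both below the named class. The ratios with these cells added were not computed and would be smaller in size. Whether they would still exceed counting error is not known, so those given here hold for the named cells only. Both were already lower at OB-EB, with ratios of -0.76 (-1.20 to -0.33) and -0.68 (-1.20 to -0.19) over MS-LS. From OB-EB to EHF neither differed beyond counting error. Gata2 was at 9.18, 6.65 and 8.05 CPM there, with no step beyond counting error.

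In definitive endoderm Gata6 was at 94.3 CPM (57 UMIs) in OB-EB cluster 11 and at 9.18 CPM (4 UMIs) in EHF cluster 23, a log2 ratio of -3.36 (-5.28 to -1.93). Gata3 was at 11.6 and 25.3 CPM, a ratio of 1.12 (-0.37 to 2.73). The leading genes of the 2 clusters shared Cer1, Sox17, Trh and Dgkk. Hhex was among those of the earlier cluster only and Foxa1 among those of the later one only.

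In nascent mesoderm Gata6 was at 91.9 CPM in MS-LS cluster 0 and 25.3 CPM in EHF cluster 8, a log2 ratio of -1.86 (-2.55 to -1.23) that was -1.13 with Leiden clustering, and Gata4 at 33.4 and 11.6 CPM, a ratio of -1.53 (-2.61 to -0.57). Both clusters were led by Mesp1, while the later one was also led by the posterior genes Cdx4 and Hoxd9. In epiblast Gata3 went from 2 UMIs at MS-LS to 8 at OB-EB, with an interval that barely left 0 (2.37, 0.04 to 5.64). In node cells 6 Gata6 UMIs were counted at MS-LS and 0 at EHF, and the level that 3 UMIs would give at EHF lay within the MS-LS interval, so no difference can be read.

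**Figure D5:**
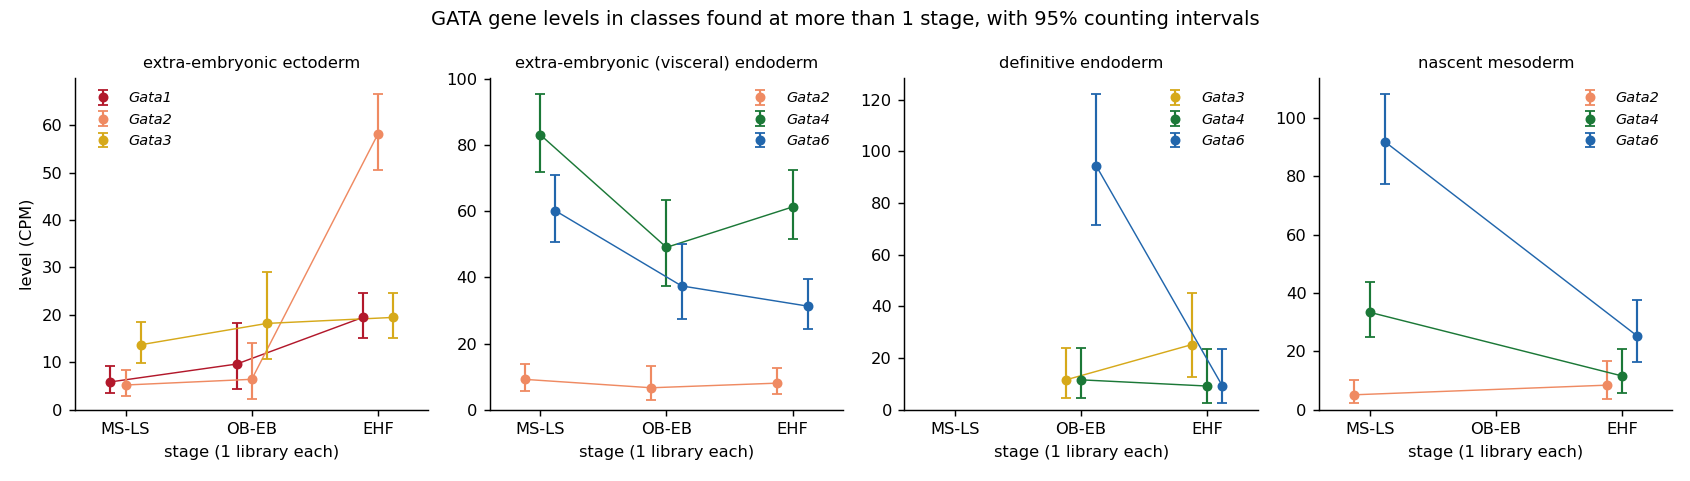
Levels of GATA genes (CPM, vertical axes) at the 3 stages in 4 classes, as points with 95% counting intervals joined by lines, where a stage without a point had no named class. Gata2 stands at 58.1 CPM in EHF extra-embryonic ectoderm against 5.22 and 6.42 CPM before, and Gata6 at 9.18 CPM in EHF definitive endoderm against 94.3 CPM.

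At MS-LS Gata6 was counted in embryonic mesoderm and in visceral endoderm. Nascent mesoderm was at 91.9 CPM, primitive streak at 67.0 CPM, visceral endoderm at 60.1 CPM, node at 30.3 CPM and epiblast at 4.43 CPM. The steps that exceeded counting error were nascent mesoderm over primitive streak (log2 ratio 0.45, 0.08 to 0.83) and node over epiblast (2.78, 1.12 to 4.22). Gata6 was seen in 13.7% of thinned nascent mesoderm cells and 0.570% of thinned epiblast cells, and in 28.1% and 1.85% before thinning, at median depths of 3423 and 4266 UMIs.

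Gata4 had another order at that stage, with visceral endoderm at 83.0 CPM, nascent mesoderm at 33.4 CPM and primitive streak at 12.3 CPM, and both steps exceeded counting error (1.31, 0.87 to 1.78, and 1.44, 0.67 to 2.26). Gata3 was led by extra-embryonic ectoderm at 13.7 CPM, beyond nascent mesoderm by 1.83 (0.59 to 3.36). Gata1 and Gata2 did not exceed 9.18 CPM in any named MS-LS class.

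At OB-EB Gata6 was at 94.3 CPM in definitive endoderm, 65.5 CPM in early lateral plate and extra-embryonic mesoderm and 37.4 CPM in visceral endoderm. The first step did not exceed counting error (0.53, -0.01 to 1.06) and the next did (0.81, 0.24 to 1.38). Gata6 was seen in 14.8% of thinned definitive endoderm cells and 0.377% of thinned epiblast cells, and in 24.3% and 1.09% before thinning, at median depths of 2953 and 2803 UMIs. Gata4 was at 49.0 CPM in visceral endoderm and 25 CPM in the lateral plate class, a step of 0.97 (0.28 to 1.69). Gata3 was at 18.2 CPM in extra-embryonic ectoderm and 11.6 CPM in definitive endoderm, not different beyond counting error.

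Other genes that encode a GATA-type zinc finger, such as Gatad1 and the Mta genes of chromatin complexes, were counted in the same 7 class pairs at EHF. Between 4 and 7 could be counted in a pair. None passed 2-fold in 6 of the pairs, in which between 0.826% and 19.9% of all genes passed in either direction, so with so few genes little can be read from this. For extra-embryonic ectoderm over cluster 16, where 11.6% of all genes were higher and 6.32% lower, Mta3 was higher (1.06) and Mta1 lower (-1.93). Of the 9 genes Trps1 and Zglp1 had too few UMIs in every pair.

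The genes whose pattern over the 14 EHF classes was most like each member were found by Pearson correlation of log2(CPM + 10) among 7502 genes with at least 200 UMIs. For Gata1 they included Cited4 (r = 0.962) and Hbb-bh1 (0.943), which were both naming markers. For Gata2 they were Myc (0.881), Ptrhd1 (0.871) and Dcaf12l1 (0.852), and for Gata3 Cldn4 (0.794), Krt19 (0.787) and Vps36 (0.768). All 14 classes entered each value.

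For Gata4 they were Tmem30a (0.936), Copb1 (0.916) and H13 (0.916), for Gata5 Rgs5 (0.917), 3632451O06Rik (0.818) and Mef2c (0.806), and for Gata6 Trpc4ap (0.918), Copb1 (0.889) and Nfxl1 (0.888). Classes of 1 library share its depth and free RNA, and a single class can carry such a correlation. Tmem30a, Rgs5 and Trpc4ap were among the first 3 in each of the 9 other settings tried, whereas most other names changed with the settings.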

How the data were processed

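Whole embryos dissociated with papain were profiled with 10x 3′ chemistry, with 1 library for each of MS-LS, OB-EB and EHF. The values were deposited as UMI counts per gene and cell, which the authors had made with Cell Ranger 3.0.2 on a GRCm38 reference with added reporter sequences, and filtered. All deposited cells were kept, and the fewest UMIs in a cell were 1001, 1003 and 1004. The 2 EHF tables held the same values under 21 differing gene names and were counted once. MS-LS shared 18 barcodes with OB-EB and 12 with EHF, and OB-EB shared 14 with EHF. Embryo identity was not listed.

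Each library was clustered alone in Seurat 5.3.0 under R 4.3.3 with Matrix 1.6.5. Counts were scaled to 10000 and log-transformed, 2000 variable genes were chosen with Gata1 to Gata6 then left out, and 50 principal components were used at resolution 2 (MS-LS, OB-EB) or 4.5 (EHF). A cluster took the best of 28 candidate types when its score led by 0.2, at least 3 markers were detected (in at least 20% of cells and 2-fold above the rest) and no other type had more of the 10 leading genes. A class needed 30 cells. Scrublet marked under 0.5% of cells, which were kept. The members and lists were chosen with earlier results of these data known.

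Levels carry exact Poisson intervals, shares Clopper-Pearson intervals and log2 ratios exact conditional intervals. A class with 0 UMIs was given a floor of 3 UMIs, and its ratio, written as at least or at most, leaves out the counting error of the other class. Gene lists used genes with at least 50 UMIs over both classes, and pattern searches genes with at least 200 UMIs. For each list the genes with the largest and smallest ratios were named, for each member the 3 genes with the most similar pattern, except that some genes are not reported here. Further genes named, such as those with 0 UMIs, were picked once their values were known. So were clusters 1, 16, 2, 6 and 10 as classes to compare.

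Python 3.11.15 was used with numpy 2.4.6, scipy 1.17.1, pandas 2.3.3, scanpy 1.11.5, leidenalg 0.10.2 and matplotlib 3.10.9, and the code was tested on simulated data. The alternatives were lower and higher clustering resolution, Leiden clustering, at least 2000 UMIs per cell, a mitochondrial limit 3 SD above the mean, leaving out the 5% of cells with the highest Scrublet scores, keeping Gata1 to Gata6 among the variable genes, other thinning and other pseudocounts. The counting strand was not given in the sources used here, so UMIs of Gata5 and its antisense gene Gata5os may not be separated. RefSeq promoter entries were missing for Gata4 and Gata6.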

Additional observations from a re-analysis of the deposited data

Results flagged for a closer look

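Values were set aside for a closer look where the lower end of the interval of a GATA gene with at least 10 UMIs in an unnamed cluster, other than cluster 16 compared above, exceeded a limit from the background class. The limit was the upper end of the interval there or, where the class had 0 UMIs, the level that 3 UMIs would give. The background class was epiblast at MS-LS and OB-EB and rostral neuroectoderm at EHF. Except for MS-LS cluster 5, whose levels were set beside visceral endoderm, these cells entered no comparison above. The values were not tested, and a cluster without a name is given by its leading genes.

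At MS-LS, Gata6 was at 14.7 CPM in cluster 4 (Fst, Fgf8, Nefl; 261 cells), against a limit of 7.31 CPM in epiblast. Cluster 5 (Spink1, Cd59a, Amot; 257 cells), whose best type was visceral endoderm, held Gata4 at 54.4 CPM and Gata6 at 48.4 CPM. Cluster 12 (Cer1, Lefty1, Sox17; 156 cells) held Gata6 at 168 CPM (141 to 198), the highest Gata6 level of any cluster listed here. In cluster 13 (Lefty2, Rasgrp3, Kdr; 151 cells) Gata2 was at 7.87 CPM, Gata4 at 41.7 CPM and Gata6 at 145 CPM. Cluster 15 (Lmo2, Gadd45g, Fli1; 69 cells) held Gata2 at 46.8 CPM (26.7 to 75.9) and Gata6 at 38.0 CPM, where the limit for Gata2 in epiblast was 1.65 CPM.

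At OB-EB, 3 clusters whose best type was nascent mesoderm held Gata4 and Gata6. Their levels were 35.3 and 52.4 CPM in cluster 2 (Gm37720, Fhl3, Myl7; 382 cells), 42.6 and 40.04 CPM in cluster 3 (Myl7, Ifitm1, Mesp1; 341 cells) and 27.8 and 62.1 CPM in cluster 5 (Lefty2, T, Pcdh19; 322 cells). The limits in epiblast were 3.90 and 6.50 CPM. Cluster 13 (Lmo2, Fli1, Gadd45g; 143 cells) held Gata1 at 37.2 CPM (21.7 to 59.5) and Gata2 at 83.1 CPM (58.8 to 114), against a limit of 1.14 CPM (3 UMIs).

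At EHF, cluster 15 (Pitx1, Hoxb6, Spin2c; 107 cells) held Gata4 at 16.9 CPM and Gata6 at 64.7 CPM, against a limit of 7.76 CPM (3 UMIs). Cluster 24 (Hbb-bh1, Cited4, Fam212a; 74 cells) held Gata1 at 188 CPM (128 to 267) and Gata2 at 78.9 CPM (42 to 135) at a median of 1916 UMIs. Its best type was erythroid, with 1 of 7 markers detected.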

How the results depend on the processing

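Of 942 values of 134 results under the alternatives 878 kept their direction and size, 64 moved and 0 reversed. Class-order steps outside the compared pairs, such as Gata2 in extra-embryonic ectoderm over erythroid cells, were not among the ratios checked. For ratios 469 stayed and 14 moved, for levels 120 and 3, for shares 42 and 10, for pairs of genes in 1 cell 56 and 14, for gene lists 155 and 5 and for patterns 36 and 18. Not all of the moved ratios, levels and patterns are named below. Erythroid cells and blood progenitors were not named at the lower resolution, which left results on them without a value there. No paired analysis was possible because each stage was 1 library of pooled embryos.

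The Gata6 log2 ratio of cardiac mesoderm over cluster 1 moved to 2.33 at higher resolution, 2.26 with at least 2000 UMIs and 2.16 under the mitochondrial limit. At higher resolution the Gata2 ratio of extra-embryonic ectoderm moved to 1.24 over cluster 16, 1.74 for EHF over OB-EB and 2.04 for EHF over MS-LS, and the last was 2.43 with Leiden clustering. The Gata6 ratio of nascent mesoderm, EHF over MS-LS, was -1.13 with Leiden clustering. The 46 ectoplacental cells that left the class at higher resolution held 66 Gata2 UMIs, while the class went from 206 to 47, and the cause was not tested.

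Shares at EHF moved with depth and, where shallower cells were left out, with the set of cells. Parietal endoderm had a median of 2742.5 UMIs, so at 3000 UMIs most of its cells were left out. Its values at 3000 UMIs, here and for pairs of genes, describe the deeper cells only. Without thinning and at 3000 UMIs, Gata1 was seen in 66.3% and 45.5% of erythroid cells, Gata2 in 33.3% and 25.6% of blood progenitors, Gata3 in 14.7% and 7.69% of definitive endoderm cells and Gata4 in 46.9% and 60.0% of parietal endoderm cells. Without thinning, Gata5 was seen in 25.8% of cardiac cells and Gata6 in 67.2% of parietal endoderm cells.

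Cells with 2 GATA genes moved likewise. Without thinning and at 3000 UMIs, Gata1 and Gata2 shared 23.8% and 12.0% of blood progenitors, and Gata4 and Gata6 shared 35.9% and 40.0% of parietal endoderm cells and 25.8% and 6.38% of cardiac cells. Without thinning, Gata1 and Gata2 shared 8.65% of erythroid cells, Gata5 and Gata6 16.5% and Gata4 and Gata5 10.3% of cardiac cells. Gata2 and Gata3 in extra-embryonic ectoderm gave 4.08% without thinning and 0 at higher resolution and with Leiden clustering. Gata4 and Gata6 in visceral endoderm gave 6.31% without thinning and 0 under the mitochondrial limit. These last thinned values rest on 1 or 2 cells.

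For blood progenitors over endothelium the number higher moved to 2 among blood partners and to 2 among GATA1 targets, under the mitochondrial limit and with Leiden clustering alike. For cluster 2 over cluster 10 the number of trophoblast partners higher moved to 0 at lower resolution, and the cause was not tested.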

Other observations

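Each stage was 1 library of pooled embryos, so variation between embryos was not measured, and cells are not replicates. A member had between 5 and 838 UMIs per library, so many low classes rest on a few UMIs each, and their order is not resolved. Names rest on markers fixed for the purpose, and cells in unnamed clusters entered no class. Levels describe RNA and not protein.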
